A study of Mus musculus with 9 samples.

Results

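A set of 10 mouse genes of the Wnt pathway, Axin2, Nkd1, Znrf3, Rnf43, Lgr5, Notum, Apcdd1, Sp5, Cdx1 and T (brachyury), was followed in embryonic stem cells (ESCs) labelled as lacking β-catenin. They were chosen by name as feedback and target genes of β-catenin, and all 10 had a row among the 52264 rows of the deposited count table. Of these 10, 8 passed the count filter and were tested. Sp5 and Lgr5 did not pass it, and Rnf43, T and Cdx1 passed it with few reads. The cells carried the genotype label beta-catenin-/- in all groups, controls included. Per the labels they were expanded on feeder-treated dishes in medium with 3 µM CHIR-99021, 1 µM PD03 and 40 ng/ml LIF. The medium was then changed to N2B27, a serum-free medium, overnight. The cells finally stayed untreated (control) or received BRD0705 or CHIR for 30 min, with 3 libraries in each of the 3 groups. CHIR-99021 inhibits both GSK3 kinases and BRD0705 is selective for GSK3α; the treatment label reads CHIR. The labels give no dose for the 30 min treatment, so the inhibitors were set side by side at doses that may differ.

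In Wnt signalling a secreted Wnt protein binds a Frizzled receptor and an LRP co-receptor, and the kinase GSK3 then no longer marks β-catenin for degradation. β-Catenin enters the nucleus and joins DNA-binding TCF/LEF proteins, which switch on target genes. Many of these targets feed back on the pathway. Axin2 and Nkd1 act inside the cell, Znrf3 and Rnf43 remove Frizzled receptors from the surface, and Notum inactivates Wnt proteins outside the cell. In mouse ESCs, GSK3 inhibition by CHIR is part of the medium that maintains the naive state. The comparison asks how these genes stood shortly after GSK3 inhibition in cells labelled as lacking the protein through which the pathway reaches them.

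The letters that TCF/LEF proteins recognise were looked for in the promoter windows of the members, because these motifs connect β-catenin to its targets. The core CTTTG was searched on both strands in its 4 full forms: CTTTGAA, beside it CTTTGAT, further also CTTTGTA, and finally CTTTGTT. None of these can overlap another on the same strand. Each window ran from 250 bases before to 50 bases after an annotated start site (RefSeq, GRCm38.p6). Windows were matched for Axin2, Nkd1, Rnf43 (2 windows), Sp5 and T. Znrf3, Notum, Lgr5, Apcdd1 and Cdx1 were not matched. A motif stood in the windows of Sp5 (2 matches) and T (1 match), against 16.9% of all 32851 windows. The windows of Axin2, Nkd1 and Rnf43 did not hold these letters. Those of Axin2 (chromosome 11, 108920099 to 108920398) and Nkd1 (chromosome 8, 88527383 to 88527682) lay inside the genes. The first bases of these genes, 108917828 and 88521342, were not covered by a window. The matches in Sp5 began at positions -222 and -104 and that in T at -235, counted from the start site. They are shown with their surroundings on the plus strand, 5′ to 3′, with the motif in capitals. The first Sp5 motif and the T motif read CTTTGTT and CTTTGAA on the opposite strand. A match describes letters and not a bound site.
Sp5, chr2:70474681-70474727: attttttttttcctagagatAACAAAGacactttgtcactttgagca
Sp5, chr2:70474799-70474845: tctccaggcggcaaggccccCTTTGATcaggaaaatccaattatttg
T, chr17:8434173-8434219: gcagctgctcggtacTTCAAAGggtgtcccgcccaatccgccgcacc

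The libraries held 17359422 to 20773337 counts. Ctnnb1, the gene named in the genotype label, had reads in every library, at 303 to 371 CPM (the read count relative to the TMM-scaled size of the library). A count for a whole gene does not resolve its exons, and no library of unedited cells was analysed here, so the genotype is given as labelled. All 10 markers of pluripotent cells were expressed, with sums of 5006 to 5105 CPM in control, 5064 to 5210 CPM with BRD0705 and 5195 to 5401 CPM with CHIR. All 12 fibroblast markers, as feeder cells would carry, were present too. Their sum was 2272 to 2728 CPM in control, 2885 to 2952 CPM with BRD0705 and 2562 to 3082 CPM with CHIR. The 10 mesendoderm markers, 3 of which were tested, summed to 17.4 to 20.4 CPM in control, 17.0 to 17.7 CPM with BRD0705 and 15.6 to 17.0 CPM with CHIR. Of these, Cer1 was at 0 in every library, Mixl1, Gsc, Mesp1, Foxa2 and Lhx1 stayed under 10 counts, and the other four did not. In bulk samples fewer cells of a type and less RNA per cell cannot be told apart.

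The 10 genes differed widely in level. Per length of the longest annotated transcript, Notum stood highest at 16.1 ± 0.889 CPM per kb (SD, n = 9 libraries). Znrf3 followed at 4.38 ± 0.634, Axin2 at 2.43 ± 0.176 and Apcdd1 at 1.37 ± 0.0681 CPM per kb (SD, n = 9 each). The ranges of these 4 neighbours did not overlap in the 9 libraries, and Apcdd1 did not overlap Cdx1, the next in order. Below them came Cdx1 (0.402 CPM per kb), T (0.326), Nkd1 (0.228), Sp5 (0.110), Rnf43 (0.0761) and Lgr5 (0.0526), and each of these neighbours overlapped the next. The order rests on the transcript chosen: that of Apcdd1 was 10.9 kb and that of Cdx1 1.896 kb. Notum, Znrf3, Apcdd1 and Axin2 together took 96.6% of all reads of the 10 genes. Among the 15366 tested genes, by mean log2 CPM, Notum lay at percentile 75.8, Znrf3 at 61.3, Apcdd1 at 49.0, Axin2 at 47.8, Nkd1 at 17.5, Cdx1 at 8.34, T at 7.60 and Rnf43 at 0.104.

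**Figure D1:**
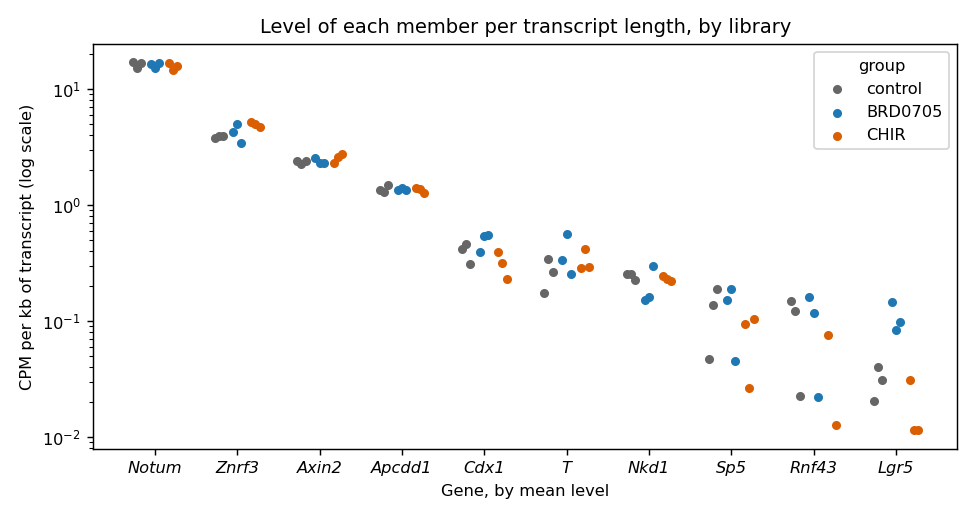
Level of the 10 genes in CPM per kb of transcript (log axis) in each library, coloured by group and ordered by the mean. Notum, Znrf3, Axin2 and Apcdd1 form separate steps, while the 6 lower genes overlap; Rnf43 in CHIR replicate 1 had 0 counts and has no point.

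Changes were called at a p under 0.05 from the quasi-likelihood test of edgeR, adjusted by the Benjamini-Hochberg method over all tested genes. Of the 8 tested members 0 passed with BRD0705 against control, where 1.22% of all tested genes did (0.69% higher, 0.534% lower). None of the 8 had an unadjusted p under 0.05 by edgeR, against 15.9% of all tested genes. Limma voom called 0 of the 8, and DESeq2 0 of the 2 members to which it gave an adjusted p. With CHIR against control 1 of the 8 passed, Znrf3, which was higher, against 6.3% of all tested genes (2.52% higher, 3.78% lower). In the direct comparison of the inhibitors 0 passed, against 7.77% of all tested genes (4.8% higher and 2.97% lower with BRD0705). There Znrf3 was the 1 of the 8 members with an unadjusted p under 0.05 by edgeR, against 22.5% of all tested genes. Between the inhibitors limma voom called 0 of 8 and DESeq2 0 of the 4 with an adjusted p. The median log2 fold change of the 8 members was 0.01 with BRD0705 and -0.05 with CHIR, against -0.00380 and -0.00907 for all tested genes. The comparisons with control share the control libraries.

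**Figure D2:**
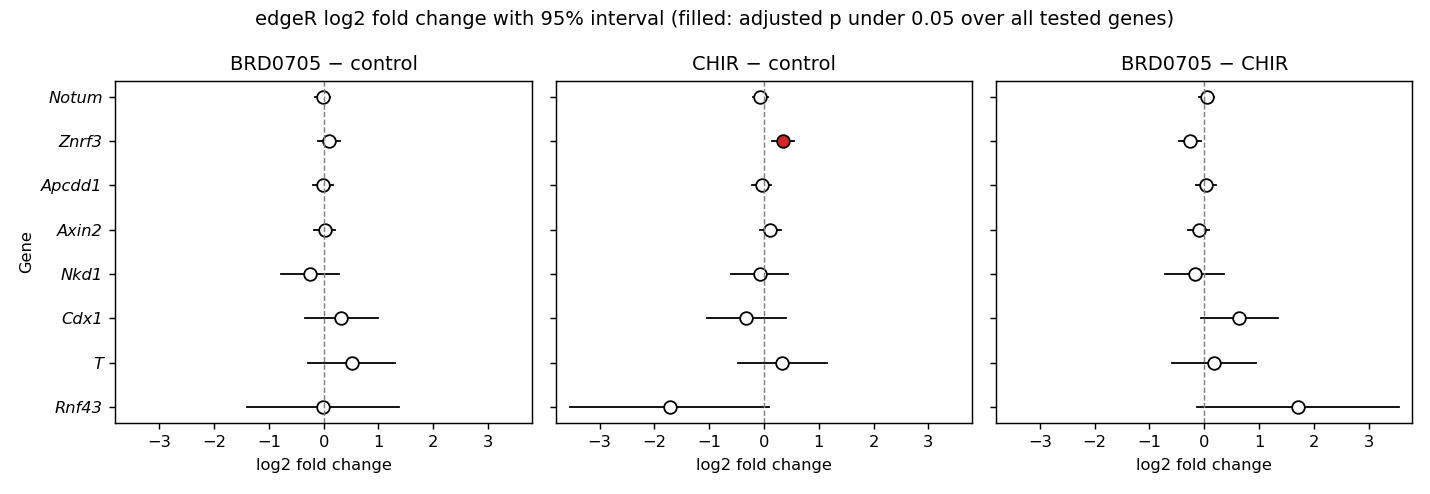
Log2 fold change of the 8 tested members (points) with 95% intervals (lines) in the 3 comparisons, from edgeR. Znrf3 with CHIR is the filled point, at an adjusted p under 0.05; the interval of Notum is the narrowest and that of Rnf43 the widest in each comparison.

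The feedback genes that act inside the cell came first. Axin2 (GRCm38 chromosome 11, 108917828 to 108950783, plus strand) encodes a scaffold of the complex that degrades β-catenin and is widely used as a readout of Wnt signalling. It stood at 13.9, 12.98 and 13.8 CPM in control replicates 1 to 3, at 14.8, 13.3 and 13.2 CPM with BRD0705 and at 13.3, 14.98 and 16.02 CPM with CHIR. All 3 groups overlapped, and the highest values were CHIR replicates 2 and 3. Its log2 fold change was 0.02 ± 0.09 with BRD0705 (SE; edgeR adjusted p 0.948) and 0.12 ± 0.09 with CHIR (SE; edgeR adjusted p 0.523). The 95% intervals of these changes ran from 0.888-fold to 1.16-fold for BRD0705 and from 0.950-fold to 1.24-fold for CHIR. A rise of Axin2 above 1.24-fold lay outside both intervals of the reported fit. Over the alternatives the log2 fold change with CHIR ran from 0.05 to 0.20, so this limit depends on the setting.

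Nkd1 (chromosome 8, 88521342 to 88594887, plus strand) encodes a protein that binds Dishevelled and dampens the signal. It had 38, 39 and 34 counts in control, 21, 21 and 46 with BRD0705 and 36, 31 and 30 with CHIR. BRD0705 replicates 1 and 2 held the lowest of these counts and replicate 3 the highest, so the groups overlapped. In CPM the BRD0705 libraries spread over 1.12 to 2.18, against 1.68 to 1.89 in control and 1.64 to 1.79 with CHIR. Its log2 fold change was -0.25 ± 0.25 with BRD0705 (SE; edgeR adjusted p 0.694) and -0.08 ± 0.25 with CHIR (SE; edgeR adjusted p 0.905).

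Znrf3 and Rnf43 encode a related pair of membrane ubiquitin ligases that mark Frizzled receptors for removal from the cell surface. Znrf3 (chromosome 11, 5276329 to 5444847, minus strand) rose with CHIR. It stood at 24.5, 25.4 and 25.4 CPM in control, at 27.3, 31.9 and 21.9 CPM with BRD0705 and at 33.6, 32.0 and 30.5 CPM with CHIR. Every CHIR library lay above every control library, while the BRD0705 libraries reached from below the controls into the CHIR range. Non-overlap of CHIR and control was seen in 1 of the 8 members, Znrf3, and in 25.1% of all tested genes. The log2 fold change with CHIR was 0.35 ± 0.10 (SE; edgeR adjusted p 0.0362), which is 1.28-fold with a 95% interval of 1.11 to 1.47. With BRD0705 it was 0.10 ± 0.10 (SE; edgeR adjusted p 0.689), and Znrf3 was lower with BRD0705 than with CHIR by a log2 change of -0.25 ± 0.10 (SE; edgeR adjusted p 0.124). A difference between the responses to the inhibitors was thus not called. The call with CHIR was close to the threshold. The edgeR adjusted p was 0.0979, 0.0808 and 0.0859 without control replicates 1, 2 and 3, and 0.104 and 0.0984 without CHIR replicates 1 and 2. The fold change stayed between 0.32 and 0.39 on the log2 scale in the 9 fits that left out 1 library. With scaling by library size only the edgeR adjusted p was 0.0581. With the fibroblast marker score as a covariate, the log2 fold change was 0.35 and the edgeR adjusted p 0.162. The fibroblast markers summed to 2894, 3082 and 2562 CPM in CHIR replicates 1 to 3, against 2272 to 2728 CPM in control.

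**Figure D3:**
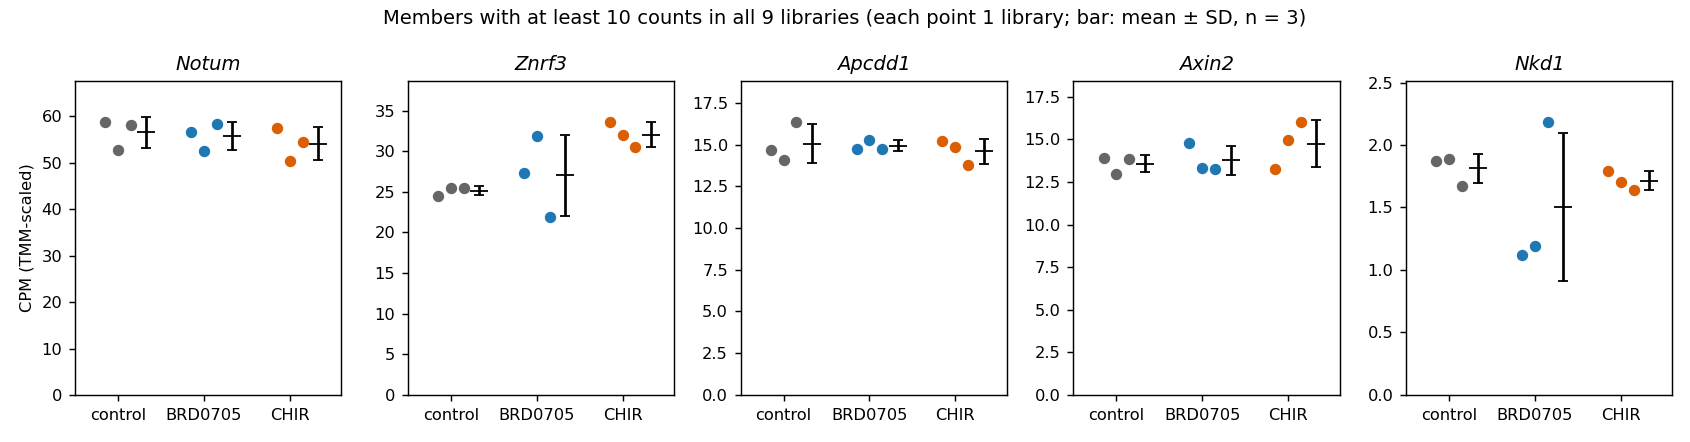
CPM of the 5 members with at least 10 counts in all 9 libraries; each point is 1 library and the bar beside it the mean ± SD (n = 3). The CHIR libraries of Znrf3, at 30.5 to 33.6 CPM, lie above the controls at 24.5 to 25.4 CPM, whereas the groups overlap in the other 4 genes.

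**Figure D4:**
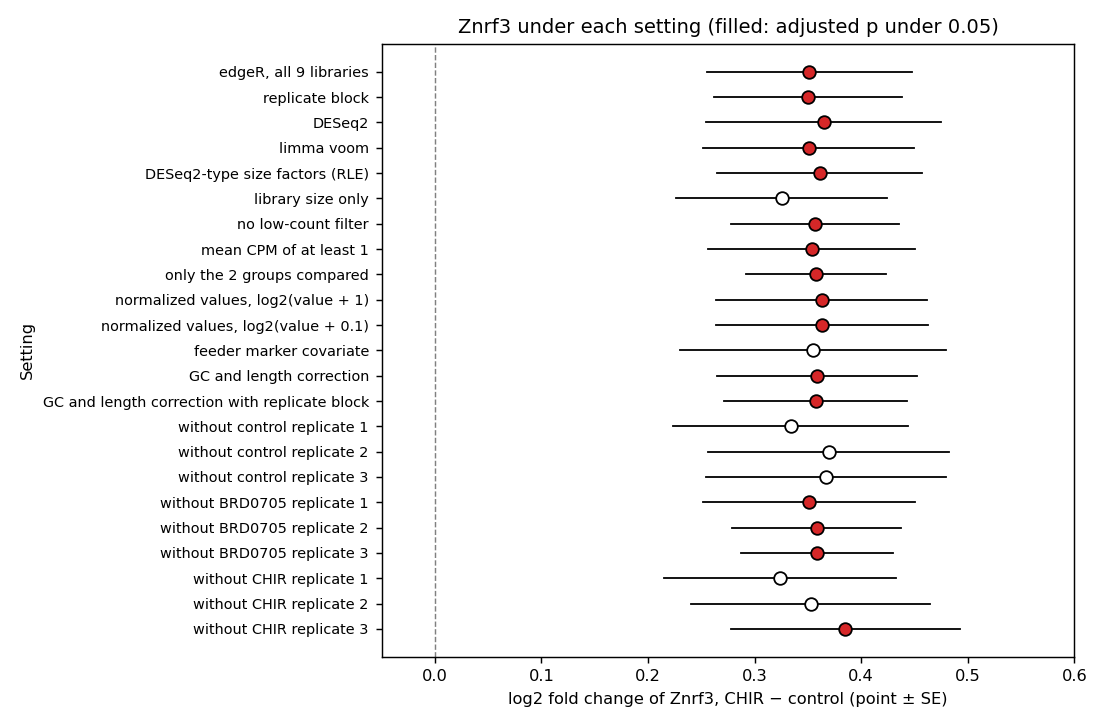
Log2 fold change of Znrf3 with CHIR against control (point ± SE) in the reported fit and under each alternative; filled points have an adjusted p under 0.05. All points lie between 0.32 and 0.39, and 7 of the 22 alternatives are open.

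Rnf43 (chromosome 11, 87663087 to 87735539, plus strand), the relative of Znrf3, was close to the limit of detection. It had 13, 11 and 2 counts in control, 13, 9 and 2 with BRD0705 and 0, 6 and 1 with CHIR. Replicate 3 was the lowest library of control and of BRD0705, replicate 1 that of CHIR, and the groups overlapped. The count of 0 in CHIR replicate 1 allows up to 3 counts, or 0.149 CPM. Summed over libraries there were 26 counts in control, 24 with BRD0705 and 7 with CHIR. The ratio of CHIR to control was 0.287, with an exact 95% interval of 0.105 to 0.678 that covers counting error only. Rnf43 passed the count filter with all groups in the fit, although no CHIR library exceeded 6 counts. With only the groups compared, it was not among the tested genes for CHIR against control or for BRD0705 against CHIR. Its tests with CHIR thus rested on including the remaining group. The fit across libraries, which includes the spread between them, gave a log2 fold change of -1.72 ± 0.86 (SE; edgeR adjusted p 0.274). It was -1.11 without CHIR replicate 1, the library at 0, and -3.73 without CHIR replicate 2, with edgeR adjusted p of 0.535 and 0.119. For BRD0705 it was -0.01 ± 0.66 (SE; edgeR adjusted p 0.998), and the SE was 0.61 with DESeq2-type size factors and 0.55 with the replicate block. The 95% interval for BRD0705 ran from 0.380-fold to 2.602-fold, so neither the size nor the direction of a change was resolved at this depth.

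Lgr5 (chromosome 10, 115450314 to 115587780, minus strand) encodes a receptor for R-spondins, the secreted proteins that keep Znrf3 and Rnf43 from removing Frizzled receptors. It did not pass the count filter. Its counts were 2, 4 and 3 in control, 13, 7 and 10 with BRD0705 and 3, 1 and 1 with CHIR. Every BRD0705 library was above every library of the other groups, while control and CHIR overlapped. Among all tested genes, which leave out Lgr5, BRD0705 did not overlap control in 20.2% and CHIR in 26.7%. Each share is for its pair alone, in either direction, and not for both pairs at once. Summed counts were 9 in control (exact Poisson 95% interval 4.12 to 17.1), 30 with BRD0705 (20.2 to 42.8) and 5 with CHIR (1.62 to 11.7). The ratio of BRD0705 to control was 3.57 (exact 95% interval 1.65 to 8.56), and that of BRD0705 to CHIR 6.05 (2.32 to 19.96). These intervals cover counting error only. Without the count filter, edgeR gave a log2 fold change of 1.79 ± 0.66 for BRD0705 against control (SE; adjusted p 0.150). For BRD0705 against CHIR it was 2.48 ± 0.73 (SE; edgeR adjusted p 0.0170). This fit without the filter had infinite degrees of freedom, against 18.2 for the tested members in the reported fit. The spread of a single gene between libraries thus carried no weight of its own in it. The comparison of BRD0705 with CHIR had an edgeR adjusted p of 0.155 without BRD0705 replicate 1, and of 0.0884 and 0.0740 without CHIR replicates 2 and 3. An exact permutation test of 3 libraries against 3 cannot give a p below 0.1. The mean level with BRD0705 was 0.523 ± 0.154 CPM (SD, n = 3).

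**Figure D5:**
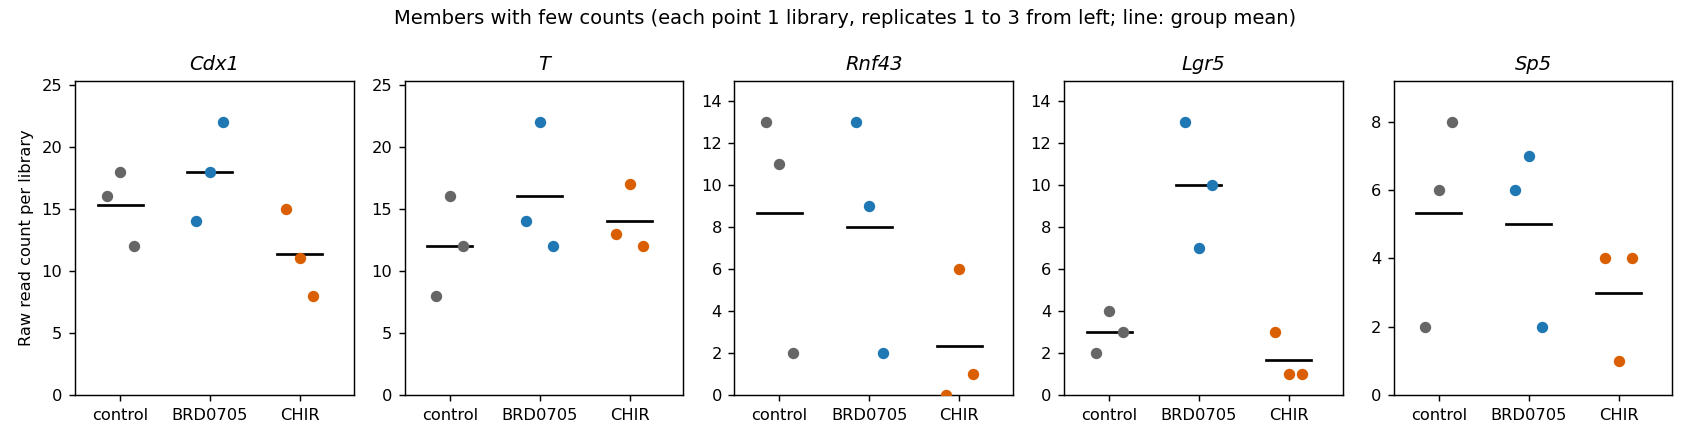
Raw read counts of the 5 members with few reads; each point is 1 library and the line the group mean. Lgr5 has 7 to 13 counts in the BRD0705 libraries and 1 to 4 in the others; in the other 4 genes control overlaps both inhibitor groups.

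Notum and Apcdd1 act on Wnt proteins outside the cell or at its surface. Notum (chromosome 11, 120653788 to 120661193, minus strand) encodes a secreted enzyme that removes the lipid Wnt proteins need to bind their receptor. It was at 58.8, 52.8 and 58.2 CPM in control, at 56.6, 52.6 and 58.4 CPM with BRD0705 and at 57.6, 50.4 and 54.4 CPM with CHIR. The groups overlapped. Its log2 fold change was -0.02 ± 0.07 with BRD0705 (SE; edgeR adjusted p 0.931) and -0.06 ± 0.07 with CHIR (SE; edgeR adjusted p 0.657). The 95% intervals were 0.896-fold to 1.09-fold and 0.868-fold to 1.05-fold, the narrowest of the 8 tested members.

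Notumos, a noncoding gene opposite Notum, had its own row and fell with CHIR; it was singled out after its values were seen. It had 141, 147 and 123 counts in control, 129, 113 and 152 with BRD0705 and 83, 95 and 85 with CHIR. All 3 CHIR libraries were below the other 6. Among all tested genes, CHIR did not overlap control in 25.1% and BRD0705 in 26.7%. These shares are for each pair alone, in either direction, and not for both pairs at once. Controls averaged 6.71 ± 0.569 CPM, BRD0705 libraries 6.85 ± 0.397 CPM and CHIR libraries 4.67 ± 0.547 CPM (SD, n = 3 per group). The log2 fold change with CHIR was -0.53 ± 0.13 (SE; edgeR adjusted p 0.0236), and BRD0705 was higher than CHIR by 0.56 ± 0.13 (SE; edgeR adjusted p 0.0155). Against control the edgeR adjusted p was 0.0683 and 0.0956 without control replicates 1 and 2, and 0.0978 and 0.0569 without CHIR replicates 1 and 3. It was 0.124 with the fibroblast marker covariate, and DESeq2 gave an adjusted p of 0.0590. Against CHIR, it was 0.0508 and 0.0513 without BRD0705 replicates 1 and 3, and 0.0723 without CHIR replicate 1, all by edgeR. With the GC and length correction and the replicate block the log2 difference was 0.46 (edgeR adjusted p 0.0568). Strand handling in the counting is not given in the sources used here, so reads of Notum and Notumos may not be fully separated.

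Apcdd1 encodes a membrane protein that binds Wnt and LRP and inhibits the signal. It stood at 14.7, 14.1 and 16.4 CPM in control, at 14.7, 15.3 and 14.8 CPM with BRD0705 and at 15.2, 14.9 and 13.8 CPM with CHIR. Control replicate 3 was the highest library and CHIR replicate 3 the lowest, and all groups overlapped. Its log2 fold change was -0.01 ± 0.09 with BRD0705 (SE; edgeR adjusted p 0.967) and -0.04 ± 0.09 with CHIR (SE; edgeR adjusted p 0.848). The 95% intervals reached from 0.876-fold to 1.12-fold and from 0.858-fold to 1.10-fold.

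Sp5, Cdx1 and T encode transcription factors that are direct Wnt targets in the early embryo. T marks the primitive streak, Cdx1 acts in posterior patterning, and Sp5 is a zinc finger protein that can limit the response of other targets. The 2 genes with TCF/LEF letters in the printed windows, Sp5 and T, had 40 and 126 counts over the 9 libraries. Sp5 (chromosome 2, 70474923 to 70477726, plus strand) did not pass the count filter. It had 2, 6 and 8 counts in control, 6, 7 and 2 with BRD0705 and 4, 1 and 4 with CHIR. The groups overlapped, with sums of 16, 15 and 9 counts. The ratio to control was 1.01 for BRD0705 (exact 95% interval 0.463 to 2.17) and 0.599 for CHIR (0.233 to 1.44), by counting error only.

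T (chromosome 17, 8434423 to 8442496, plus strand) had 8, 16 and 12 counts in control, 14, 22 and 12 with BRD0705 and 13, 17 and 12 with CHIR. The group ranges overlapped, and replicate 2 held the highest count in each group. The log2 fold change was 0.52 ± 0.38 with BRD0705 (SE; edgeR adjusted p 0.547) and 0.34 ± 0.39 with CHIR (SE; edgeR adjusted p 0.694). The 95% intervals reached from 0.826-fold to 2.48-fold and from 0.720-fold to 2.22-fold. Cdx1 had 16, 18 and 12 counts in control, 14, 18 and 22 with BRD0705 and 15, 11 and 8 with CHIR. In CPM the BRD0705 libraries, at 0.749 to 1.04, lay just above the CHIR libraries, at 0.437 to 0.748, and both overlapped control. Non-overlap of BRD0705 and CHIR was seen in 1 of the 8 members, Cdx1, and in 26.7% of all tested genes. Its log2 fold change between them was 0.64 ± 0.33 (SE; edgeR adjusted p 0.269), with an interval of 0.959-fold to 2.54-fold. Against control it was 0.32 ± 0.32 for BRD0705 (SE; edgeR adjusted p 0.685) and -0.32 ± 0.34 for CHIR (SE; edgeR adjusted p 0.667).

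The inhibitors were also compared directly, with 8 tested members. Apart from Znrf3 and Cdx1, given above, BRD0705 differed from CHIR by 0.05 ± 0.07 on the log2 scale in Notum, 0.03 ± 0.09 in Apcdd1 and -0.10 ± 0.09 in Axin2 (SE). The 95% intervals were 0.936-fold to 1.14-fold for Notum, 0.900-fold to 1.16-fold for Apcdd1 and 0.818-fold to 1.07-fold for Axin2. For Nkd1 and T the intervals were wider, at 0.611-fold to 1.29-fold and 0.663-fold to 1.94-fold. That of Rnf43 ran from 0.917-fold to 11.7-fold, so it held no difference as well as a large one. The log2 difference of Rnf43 was 1.71 ± 0.88 (SE; edgeR adjusted p 0.259), 1.11 without CHIR replicate 1 and 3.72 without CHIR replicate 2. With only the groups compared, Rnf43 was not among the tested genes here.

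Other genes of the pathway were read from lists, which share some genes. Of 30 further targets 21 were tested. With BRD0705 1 was called higher against control, with CHIR 1 was called lower (Myc), and 3 were called higher with BRD0705 than with CHIR, Myc and Ephb2 among them. Of all tested genes 0.69%, 3.78% and 4.8% were called in these directions. The median log2 fold change of the 21 was 0.12 with BRD0705, -0.01 with CHIR and 0.11 between the inhibitors, against -0.00380, -0.00907 and 0.00383 for all tested genes.

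Myc, the growth regulator, was lower with CHIR, at 47.7 ± 0.875 CPM, than in control, at 56.6 ± 4.77 CPM, and was at 66.0 ± 5.67 CPM with BRD0705 (SD, n = 3 each). The log2 fold change with CHIR was -0.25 ± 0.07 (SE; edgeR adjusted p 0.0476). It was above the threshold by DESeq2 (adjusted p 0.0565), limma voom (adjusted p 0.0570) and edgeR with the fibroblast covariate (adjusted p 0.117) or DESeq2-type size factors (adjusted p 0.0561). On the log2 normalized values limma gave adjusted p of 0.0606 and 0.0629. Without 1 library the edgeR adjusted p was 0.156 and 0.169 (control replicates 1 and 3), 0.0578 (BRD0705 replicate 2) and 0.0975, 0.149 and 0.0954 (CHIR replicates 1 to 3). BRD0705 was higher than CHIR by 0.47 ± 0.07 (SE; edgeR adjusted p 0.000571), in all 9 fits that left out 1 library. Ephb2, an ephrin receptor gene, was higher with BRD0705 than with CHIR by 0.26 ± 0.07 (SE; edgeR adjusted p 0.0230). Its edgeR adjusted p was 0.0622 and 0.0871 without BRD0705 replicates 1 and 3, 0.0940 and 0.0924 without CHIR replicates 1 and 2, and 0.150 and 0.0893 with a correction for GC content and length, without and with the replicate block.

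Of 25 ligand and secretion genes 12 were tested. By edgeR, DESeq2 and limma voom 0 passed against control with either inhibitor. By edgeR 0 of the 12 with BRD0705 and 3 with CHIR had an unadjusted p under 0.05, against 15.9% and 20.5% of all tested genes. Wnt7b was higher with BRD0705 (3.69 ± 0.413 CPM) than with CHIR (2.34 ± 0.394 CPM; SD, n = 3 each), with a log2 difference of 0.64 ± 0.18 (SE; edgeR adjusted p 0.0343). That p was 0.0790 and 0.125 without BRD0705 replicates 1 and 2 and 0.116 and 0.107 without CHIR replicates 2 and 3, by edgeR, and 0.0874 by DESeq2. It was 0.0545 with only the groups compared, and 0.0659 and 0.0734 with the GC and length correction, without and with the replicate block, by edgeR. Of 17 antagonist genes beyond the members 13 were tested, and edgeR, DESeq2 and limma voom called 0 in each of the 3 comparisons. There 1, 1 and 2 of the 13 genes had an unadjusted p under 0.05 with BRD0705, with CHIR and between the inhibitors, against 15.9%, 20.5% and 22.5% of all tested genes.

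All 20 receptor and transducer genes were tested. With BRD0705 against control 0 passed by edgeR, DESeq2 or limma voom. An unadjusted p under 0.05 was seen in 2 of the 20 with BRD0705, in 7 with CHIR and in 9 between the inhibitors, against 15.9%, 20.5% and 22.5% of all tested genes. With CHIR 2 Frizzled receptor genes fell by edgeR and limma voom, and 0 by DESeq2 (adjusted p 0.0503 for Fzd10 and 0.0880 for Fzd8). By edgeR 3.78% of all tested genes were called lower with CHIR. Fzd10 averaged 13.9 ± 1.39 CPM in the controls, 10.6 ± 1.33 CPM in CHIR libraries and 16.2 ± 0.163 CPM in BRD0705 libraries (SD, n = 3 per group). With CHIR it fell by a log2 change of -0.40 ± 0.10 (SE; edgeR adjusted p 0.0270), and BRD0705 was higher than CHIR by 0.62 ± 0.10 (SE; edgeR adjusted p 0.00112). Against control the edgeR adjusted p was 0.108 and 0.0986 without control replicates 1 and 3 and 0.0844 and 0.133 without CHIR replicates 1 and 2. The call against CHIR held in all 9 such fits. Fzd8 fell with CHIR from 4.71 ± 0.634 to 3.11 ± 0.319 CPM (SD, n = 3 each), by a log2 change of -0.59 ± 0.16 (SE; edgeR adjusted p 0.0354). Its edgeR adjusted p was 0.136, 0.0518 and 0.0775 without control replicates 1 to 3 and 0.0868 and 0.132 without CHIR replicates 1 and 2. With the fibroblast marker covariate the edgeR adjusted p was 0.207 for Fzd10 and 0.154 for Fzd8.

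Between the inhibitors, Fzd2 was higher with BRD0705 than with CHIR by 0.45 ± 0.10 (SE; edgeR adjusted p 0.00892), in all 9 fits that left out 1 library. Dvl2, which encodes a Dishevelled protein, was lower with BRD0705 by a log2 change of -0.19 ± 0.06 (SE; edgeR adjusted p 0.0498). It lost the call in 7 of the 9 such fits: the edgeR adjusted p was 0.0595 and 0.0673 without control replicates 2 and 3, 0.0842, 0.139 and 0.102 without BRD0705 replicates 1 to 3, and 0.104 and 0.196 without CHIR replicates 1 and 3. It was 0.0502 with the replicate block, 0.0913 with library size only, 0.0657 with only the groups compared and 0.0726 with the fibroblast covariate, by edgeR.

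The genes most like Axin2 and Znrf3 over the 9 libraries were found by the root mean square difference of their centred log2 CPM. For Axin2, whose log2 CPM spanned 0.30, the closest were Scamp3 (0.0288), Snrpa (0.0289) and Rogdi (0.0367), and 1612 of the tested genes lay within 0.1. For Znrf3, whose log2 CPM spanned 0.62, the closest were Tnfrsf10b (0.0723), Nsun3 (0.0778) and Tent5a (0.0791), and 11 genes lay within 0.1. Tnfrsf10b had a log2 fold change of 0.41 with CHIR and 0.17 with BRD0705, and Nsun3 of 0.32 and 0.000588.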

How the data were processed

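RNA sequencing libraries were compared, 9 in all, with groups and replicate numbers taken from the sample titles. Deposited by the authors were raw counts, 1 row per gene symbol, and a normalized signal, equal to the raw count divided by 1 factor per library (constant to within 9.98e-10). The submitters' processing notes name RSEM, DESeq2 and the mm10 build with no role. If RSEM gave the counts, they are rounded estimates. Annotation and strand handling are not given in the sources used here. The labels name both polyA RNA and ribosomal RNA depletion, and do not say that replicates are separate cultures, so p-values measure the spread between these samples.

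Counts were tested with edgeR 4.0.16 (R 4.3.3): filterByExpr with a minimum count of 10, TMM scaling, 1 quasi-likelihood fit of 3 group means, and 2-sided tests with Benjamini-Hochberg adjustment over 15366 genes. For log2 CPM a prior count of 2 was added. Transcript lengths and GC content came from GENCODE vM39, and matched 98.5% of tested genes. Positions and promoters came from RefSeq GRCm38.p6, the same assembly as mm10. The members and gene lists were chosen with earlier results of these data known. The genes named were all 10 members, list genes past the threshold (up to 8 a list) and the 3 genes most like Axin2 and Znrf3; Notumos was added later. An item of the list of further targets is not reported here. Alternatives were DESeq2 1.42.0, limma voom 3.58.1, the replicate block, other scalings and filters, only the groups compared, limma on log2(normalized value + 1) or + 0.1, a covariate of 12 fibroblast markers, a GC and length correction (splines with 5 degrees of freedom), and leaving out each library. Chosen after seeing the data were the fits without a filter for Lgr5 with each library left out or with the block, and all alternatives for Notumos and the list genes. In the fits that left out a library the tested genes were kept. The exception was the fits without a filter for Lgr5, which took all genes with any count in the remaining libraries.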

Additional observations from a re-analysis of the deposited data

How the results depend on the processing

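The 0 calls among the members with BRD0705 against control remained 0 in all 22 alternatives, including the replicate block. The single call with CHIR, Znrf3, gave a count of 0 with library size only and with the fibroblast covariate, and 0 to 1 in the fits that left out 1 library. Between the inhibitors the count was 2 with no low-count filter (Znrf3 and Lgr5), and 0 to 1 when 1 library was left out; the single call was Znrf3, without BRD0705 replicate 2 (edgeR adjusted p 0.0196). The causes were not tested. After subtracting group means, libraries of the same number correlated at -0.00119 on average (9 pairs, -0.0897 to 0.0802) and those of other numbers at 0.000622. The labels do not say whether libraries of the same number were prepared together, and these averages cannot decide it. With the replicate block, 222, 973 and 1177 genes passed with BRD0705, with CHIR and between inhibitors, and Znrf3 with CHIR had a log2 fold change of 0.35 (edgeR adjusted p 0.0283).

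Over all tested genes, the 188 calls with BRD0705 became 484 with DESeq2 and 609 with no low-count filter. DESeq2 gave an adjusted p to 7542 genes and the fit without the filter tested 26762, against 15366 in the reported fit. These counts thus have different bases. With the fibroblast covariate the 188 became 0 (1611 at an unadjusted p under 0.05, edgeR). They became 112 with the GC and length correction, 109 with that correction and the block, and 33 to 325 without 1 library. The 968 calls with CHIR became 329 with the fibroblast covariate and 525 to 1096 without 1 library, and the 1194 calls between inhibitors 629 to 1306 without 1 library. With library size only, 252 were higher and 702 lower with CHIR, against 387 and 581, and 912 higher and 239 lower between inhibitors, against 738 and 456.

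Directions changed only for values that were called under no alternative run. With the GC and length correction, alone and with the block, the log2 fold change with BRD0705 against control was -0.0606 and -0.0608 for Axin2 and -0.0764 and -0.0737 for Notumos, and that between inhibitors -0.0475 and -0.0478 for Notum and -0.00156 and -0.00224 for Apcdd1. For Rnf43 with BRD0705 it was 0.0360 with the replicate block, 0.00556 with no low-count filter, and 0.0129 and 0.00946 on normalized values. For Dvl2 with BRD0705 it was 0.0391 with the fibroblast covariate. Leaving out 1 library gave, with BRD0705 against control, -0.0317 to 0.0585 for Axin2, -0.0282 to 0.243 for Znrf3, -0.549 to 0.515 for Rnf43, -0.0569 to 0.0286 for Notum, -0.0474 to 0.0599 for Apcdd1 and -0.0290 to 0.0862 for Notumos. It gave -0.0773 to 0.0299 for Apcdd1 with CHIR and, between inhibitors, -0.562 to 0.00114 for Nkd1, -0.00373 to 0.0914 for Notum, -0.0112 to 0.0583 for Apcdd1 and -0.182 to 0.418 for T. DESeq2 gave no adjusted p for most low members. Depth limits Sp5, Lgr5 and Rnf43, at 40, 44 and 57 counts over the 9 libraries.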
